A study of Gallus gallus with 7 samples.

Results

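Sox10 and tfap2B pull-downs from chicken vagal neural crest were set against each other without their inputs, over the 13888 regions on placed chromosomes out of the 25469 regions in the deposited chromatin table. Placed regions are those assigned to 1 of the 34 assembled chromosomes rather than to a loose scaffold. The 4 libraries of the comparison are 2 of sox10 and 2 of tfap2B, out of 7 libraries in the series, and after a filter on low reads 13862 of the 13888 placed regions were tested. Cells of wild-type embryos were electroporated at Hamburger and Hamilton stage 8 (HH8) with an E2 reporter that drives citrine, and the E2+ cells were dissociated and sorted at HH18. The factors carried an Avi tag, a short peptide that the enzyme BirA biotinylates, and streptavidin beads pulled down the bound chromatin without an antibody. The electroporated factor was therefore added to whatever the cells made themselves, and no pull-down without a tagged factor is among the libraries. Whether the 2 libraries of a factor had separate embryos or pools as their source is not in the labels, and the spread behind each p-value is that between these libraries and may be technical. The remaining libraries are 2 inputs from the same kind of cells and 1 RNA library of NC2+ cells at HH10, electroporated at HH4. The inputs were not in the main fit. They are given as values beside the results, and were used to group regions by input reads and in an alternative fit.

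Sox10 is a transcription factor of the SOX family, whose HMG domain binds the minor groove of DNA and bends it. In the neural crest it maintains multipotent cells and later drives glial and melanocyte genes, and it is known to act largely through enhancers away from promoters. Tfap2B belongs to the AP-2 family, which binds GC-rich palindromes as dimers and takes part in specifying the neural crest and, later, sympathetic neurons. Vagal neural crest, from the level of the hindbrain, gives rise to most of the enteric nervous system and to part of the outflow tract of the heart.

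Values are given as scaled reads, the deposited unit, which is whole reads multiplied by 1 constant per library. Recovered reads in all regions numbered 2533921 and 1366132 for sox10 and 3498728 and 1405830 for tfap2B, so the second library of each factor is the shallower. For the tested placed regions the median level was 124 and 122 scaled reads for sox10, and 141 and 121 for tfap2B. Across the 13862 placed regions, log2 values of the sox10 pair had a Pearson's r of 0.80 and those of the tfap2B pair 0.69, against 0.26 to 0.57 for libraries of different factors. These correlations are across regions of the same libraries, which are not independent replicates. Each tfap2B library had a positive r with each input (0.21 to 0.54). For sox10 against the inputs r was -0.24 to -0.04, and Spearman's rho was -0.21 to 0.07. The sign differed between the measures only for sox10 replicate 1 with input replicate 2 (-0.04 and 0.07).

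The direct comparison asks where the factors differ in pull-down signal. Sox10 was higher at 579 of the 13862 placed regions (4.18%) and tfap2B at 10 (0.0721%), with limma at a Benjamini-Hochberg adjusted p under 0.05 over all 24067 regions tested, placed and unplaced. The regions higher in sox10 lay mostly in introns and between genes. Of the 10 higher in tfap2B, 5 lay in the exons of a single gene. In the 10205 unplaced regions tested the split was another one, with 3 higher in sox10 (0.0294%) and 12 higher in tfap2B (0.118%).

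**Figure D1:**
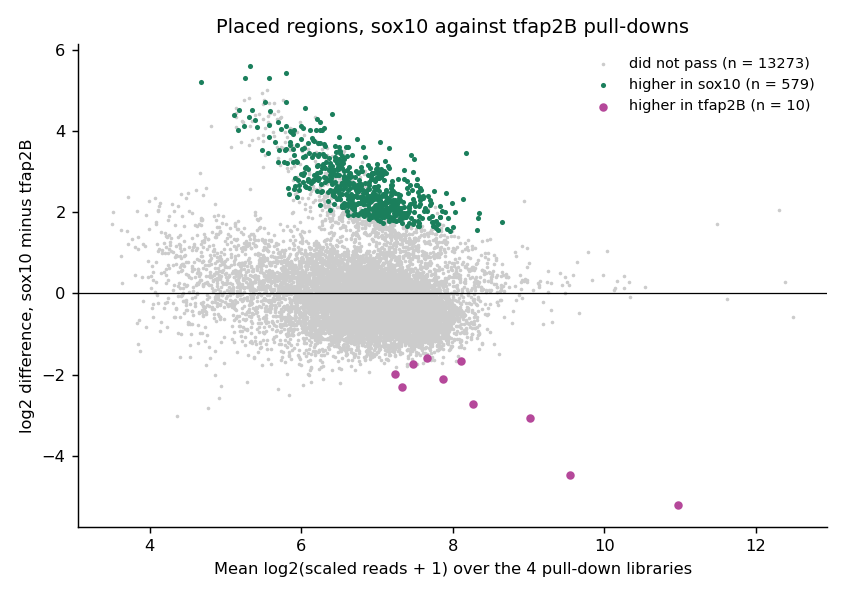
Each point is 1 placed region, with the mean log2(scaled reads + 1) of the 4 pull-down libraries on the x axis and the log2 difference (sox10 minus tfap2B) on the y axis. The 579 regions higher in sox10 have differences of 1.54 to 5.60, and of the 10 regions higher in tfap2B the 2 strongest reach -4.47 and -5.21.

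Both groups of libraries moved away from their usual level at the 579 regions higher in sox10. Sox10 replicate 1 had 108 to 918 scaled reads there, with a median of 244, and sox10 replicate 2 had 129 to 999, with a median of 299. Tfap2B replicate 1 had 0.895 to 271, with a median of 41.2, and tfap2B replicate 2 had 6.25 to 187, with a median of 54.1. The sox10 medians were 1.97 and 2.46 times those of all placed regions, and the tfap2B medians 0.291 and 0.448 times. At 574 and 579 of the 579 regions the 2 sox10 libraries were above their placed medians, and at only 6 and 18 regions the 2 tfap2B libraries were. At these regions sox10 signal was above, and tfap2B signal below, that of the typical placed region. The same 4 libraries made the calls, so these values describe what was selected and are no separate support.

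At all 579 regions the lower sox10 library lay above the higher tfap2B library, as it did at 20.9% of all placed regions tested. Since these libraries also made the calls, this order and the ratios that follow describe what was selected. The smallest of the sox10 to tfap2B ratios had a median of 4.03 over these regions, ran from 2.32 to 18.1, and was at least 4 at 293 of them. The median log2 difference was 2.52. The 5 largest log2 differences were all at regions with 1 read in tfap2B replicate 1, and since every region lists at least 1 read, that value can stand for 0 or 1.

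The regions higher in sox10 lay mostly away from promoters, although not every group of regions there leaned to sox10. Promoter regions, within 1 kb of a transcription start site (TSS), made up 51.0% of the placed regions tested but only 25 of the 579 regions higher in sox10 (4.32%). Introns held 224 of the 579 (38.7%), intergenic sequence 304 (52.5%) and exons 26 (4.49%). In terms of each class, 13.2% of intronic, 7.28% of intergenic, 2.86% of exonic and 0.353% of promoter regions were higher in sox10, against 4.18% of all placed regions. The median log2 difference (sox10 minus tfap2B) was -0.36 in promoters, 0.02 in exons, 0.09 between genes and 0.42 in introns, against -0.16 over all placed regions. At 1 to 5 kb from a TSS it was -0.05. Both tfap2B libraries lay above both sox10 libraries at 27.2% of the regions in that bin, and the reverse held at 23.4%. In exons these shares were 24.5% and 21.4%. Other scalings moved the median of all tested regions from 0.04 to between 0.00 and 0.19. A scaling shifts all classes alike, so the distance of a class from the median of all placed regions, -0.19 for promoters and 0.59 for introns, is nearly fixed. The sign of the exon median is not, and it was negative with total reads (-0.02) and with DESeq2 size factors (-0.01).

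With distance from a TSS the tfap2B level dropped while the sox10 level stayed nearly flat. For sox10 the median level was 126 and 124 scaled reads within 1 kb of a TSS and 111 and 123 beyond 100 kb. For tfap2B it was 179 and 140 within 1 kb, 104 and 102 at 5 to 20 kb, and 53.7 and 60.4 beyond 100 kb. The share of regions higher in sox10 was 0.353%, 3.54%, 8.10%, 11.2% and 13.0% in the 5 distance bins from 0 to 1 kb to over 100 kb. The inputs had the steepest profile, with medians of 137 and 256 within 1 kb and 33.3 and 9.07 beyond 100 kb. Dividing a library's promoter median by its median beyond 20 kb gave 1.06 and 1.00 for sox10 and 2.50 and 1.76 for tfap2B. These ratios did not overlap between the factors, and the two-sided exact permutation p was 0.333, the smallest that 2 against 2 libraries allow.

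**Figure D2:**
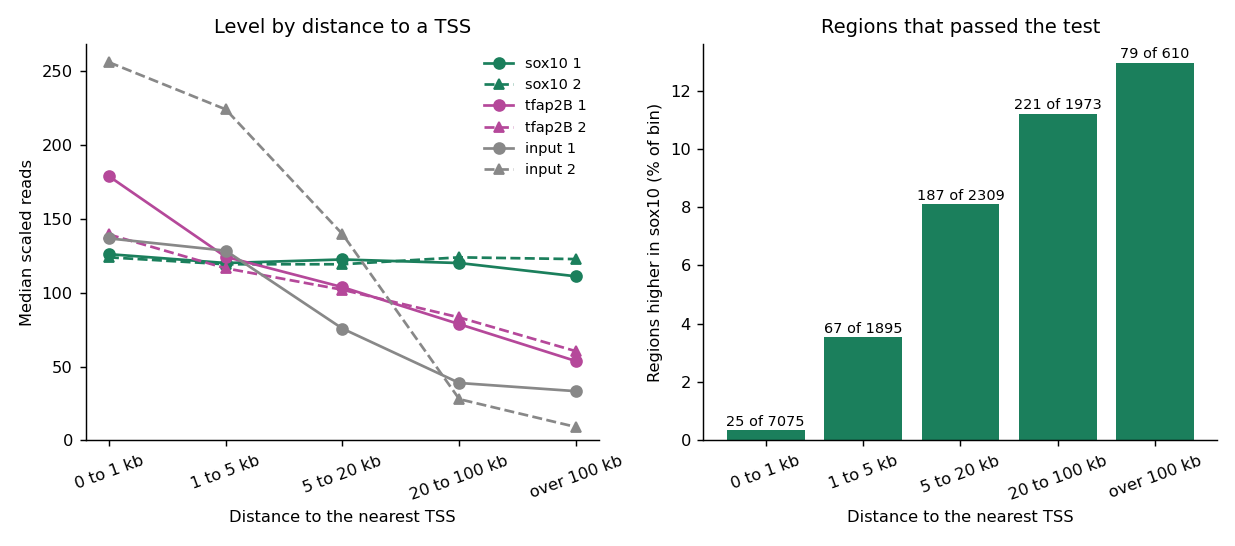
Left, the median scaled reads of each library (y axis) in 5 bins of distance to the nearest TSS (x axis); right, the percentage of regions in each bin that were higher in sox10, with counts above the bars. Both sox10 lines stay between 111 and 126 while both tfap2B lines run down to 53.7 and 60.4.

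The same contrast appeared in how each library's scaled reads were spread over the placed regions. Promoters took 49.0% and 46.2% of them for sox10 and 61.2% and 57.2% for tfap2B, with means of 47.6% ± 1.94 and 59.2% ± 2.88 (SD, n = 2 each; two-sided exact permutation p = 0.333, the smallest possible). Introns took 14.0% ± 0.506 in sox10 and 8.43% ± 1.17 in tfap2B (SD, n = 2), and intergenic regions 31.5% ± 0.791 and 25.7% ± 1.78. For these 3 classes the sox10 and tfap2B libraries did not overlap. For exons they did, at 6.45% and 7.37% against 6.69% and 6.59%. The inputs placed 52.1% and 61.9% of their scaled reads in promoters, a range that holds the tfap2B values and lies above both sox10 values.

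Toward tfap2B, many regions leaned a little and few passed the main test, which covered placed and unplaced regions together. With placed regions only, 145 passed toward tfap2B (1.05%). Both tfap2B libraries lay above both sox10 libraries at 4128 placed regions (29.8%), more than the 2896 (20.9%) at which both sox10 libraries lay above both tfap2B libraries. In promoters these shares were 39.1% and 7.75%, and in introns 12.7% and 47.7%. The sizes went the other way, with 1671 regions past a log2 difference of 1 toward sox10 and 931 toward tfap2B. The balance of the non-overlapping regions depended on the scaling. With trimmed mean of M-values (TMM) factors from the placed regions it was 24.1% for tfap2B and 25.1% for sox10, although in promoters tfap2B kept the larger share, 32.4% against 11.1%.

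Input reads moved with the difference between the factors. Of the 579 regions higher in sox10, 558 (96.4%) had at most 100 reads in each input, against 17.9% of all placed regions, and 195 had at most 3. Where neither input exceeded 3 reads, the median log2 difference was 2.08, and 39.6% of these 493 regions were higher in sox10. At the 7070 regions with 301 to 1000 reads in the deeper-covered input it was -0.32, and 2 regions were higher in sox10. Outside promoters alone, the median went from 2.08 at the lowest input reads to -0.20 at 301 to 1000 reads. In promoters it went from 2.01, over only 16 regions, to -0.37. At 21 to 100 input reads the median was 0.26 in promoters and 0.87 outside them. Over 1000 input reads it was -0.37 in promoters and -0.10 outside them, so outside promoters the decline did not continue. The sources used here do not say how the regions were called or on which libraries, and the part of the inputs or of region calling in the difference was not tested.

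**Figure D3:**
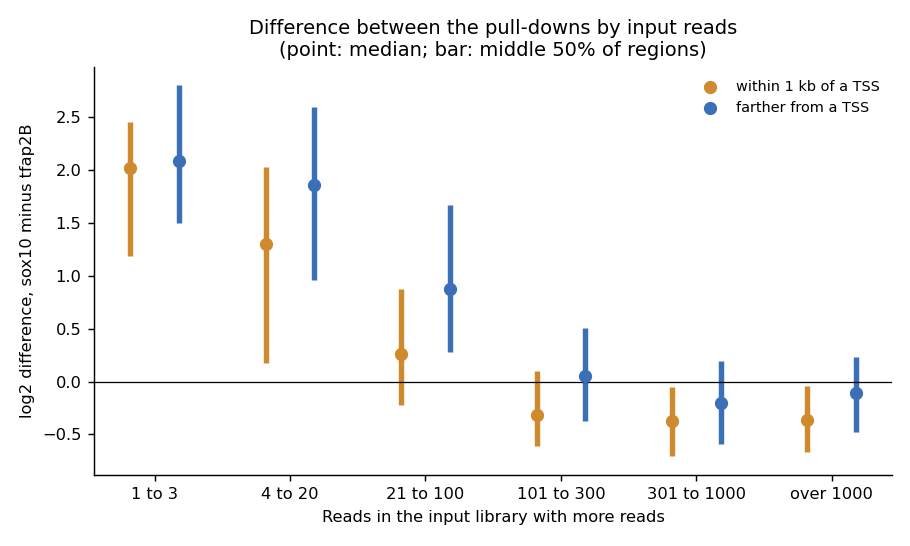
The log2 difference (sox10 minus tfap2B, y axis) of placed regions grouped by reads in whichever input had more (x axis), separately within and beyond 1 kb of a TSS; points are medians and bars span the interquartile range of the regions. Medians beyond and within 1 kb run from 2.08 and 2.01 at 1 to 3 input reads to -0.20 and -0.37 at 301 to 1000. Over 1000 input reads they are -0.10 and -0.37.

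The regions named for sox10 are the 12 with the largest difference among those with at least median signal and a TSS within 100 kb, 1 per nearest gene. They comprise 6 intergenic regions, 5 intronic regions and 1 promoter. Over the 12, sox10 levels were 330 to 648 scaled reads, tfap2B levels 18.8 to 91.6, and the log2 differences were 3.00 to 3.73. Each was also among the 515 placed regions (3.72%) that edgeR's quasi-likelihood test on recovered reads called for sox10. All 515 lie within the 579 and come from the same libraries, so this is no independent support.

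The largest of these differences was at an intergenic region of chromosome 2, 14028238 to 14028738 (galGal5), 17.2 kb from the nearest TSS. Sox10 had 417 and 545 scaled reads there and tfap2B 18.8 and 64.6, which is 3.73 ± 0.56 on the log2 scale (SE, limma adjusted p = 0.0232). Both sox10 values lie above the placed median and both tfap2B values below it. The gene with that TSS had 577 CPM (counts scaled to the library total) in the HH10 RNA library, the highest level among the nearest genes of the 12 regions.

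An intronic region of chromosome 13, 2382437 to 2382937, followed, with sox10 at 465 and 524 scaled reads and tfap2B at 27.7 and 58.3 (log2 difference 3.58 ± 0.44, SE, limma adjusted p = 0.0232). The region nearest to a TSS apart from the promoter was on chromosome 28, 3744648 to 3745148, 1.20 kb away. It had 496 and 648 in sox10 and 38.5 and 72.9 in tfap2B (3.39 ± 0.41). Sox10 replicate 2 had its highest value among the 12 here. On chromosome 1, an intergenic region at 80667859 to 80668359 had 538 and 590 in sox10, 41.2 and 77.1 in tfap2B, and 1 read in each input (3.30 ± 0.40). An intron of chromosome 2 at 89507336 to 89507836, 55.1 kb from a TSS, had 377 and 482 in sox10 and a close pair of tfap2B values, 41.2 and 45.8 (3.27 ± 0.37). The only promoter among the 12 was on chromosome 8, 7446586 to 7447086. It had 379 and 388 in sox10 and 36.7 and 60.4 in tfap2B (3.00 ± 0.40), so its sox10 replicates were nearly equal.

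**Figure D4:**
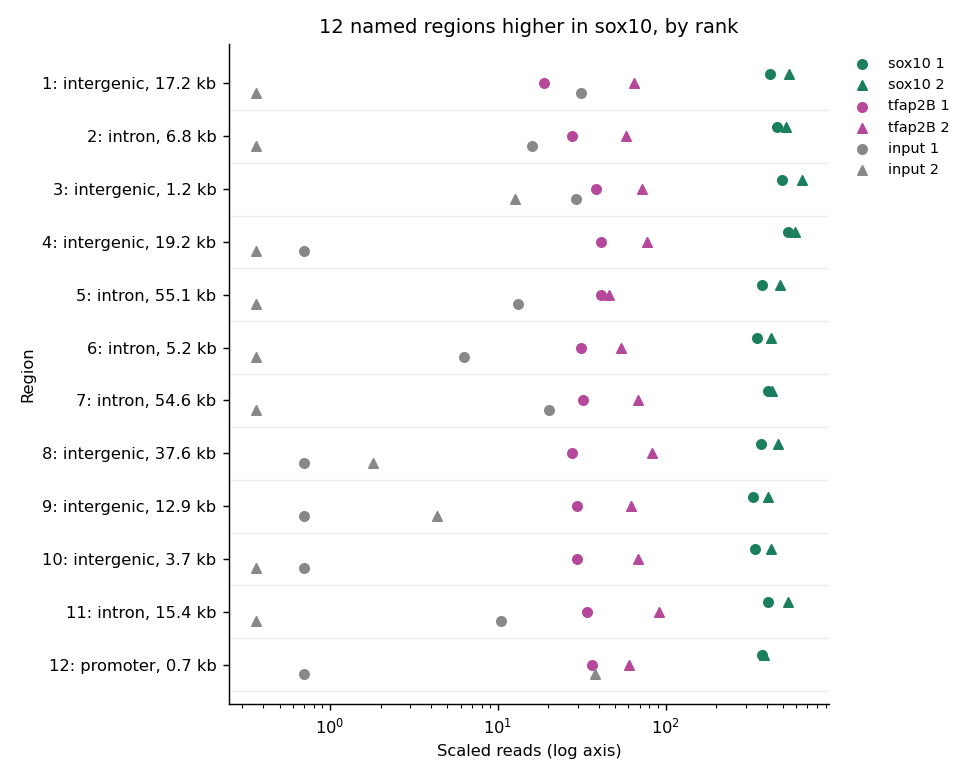
Scaled reads on a log axis in each of the 6 chromatin libraries (points and triangles are replicates 1 and 2) for the 12 named regions higher in sox10, ranked by log2 difference and labelled with class and distance to the nearest TSS. Every sox10 value lies between 330 and 648 and every tfap2B value between 18.8 and 91.6.

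The median distance from a region higher in sox10 to the nearest other one was 459 kb, and 23 had another within 10 kb. Spacing and regions per gene were not measured for all placed regions, so these counts have no reference beside them. Of the 579, 500 had a TSS within 100 kb, and they belonged to 470 genes, 443 of them with 1 such region, 24 with 2 and 3 with 3. No gene had more. On the 28 chromosomes with at least 100 tested regions, the share higher in sox10 ran from 1.12% (chromosome 28) through a median of 4.22% to 8.22% (chromosome 24, 12 of 146 regions). On the Z chromosome it was 2.26% (25 of 1107).

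The 3 genes with 3 such regions each are the extreme by count of nearest regions, since 443 of the 470 genes had 1. Counted instead by regions lying inside a gene, 1 other gene held 3, and it is not described here. On chromosome 18, the gene ENSGALG00000037717 (8934258 to 8973228, minus strand, 98.9 CPM at HH10) had 3 intronic regions upstream of or inside it, 2 of them in a neighbouring gene. At 8993051 to 8993551 sox10 had 193 and 218 scaled reads and tfap2B 16.1 and 14.6 (log2 difference 3.66 ± 0.48, SE, limma adjusted p = 0.0232). At 8989269 they had 431 and 445 against 76.1 and 95.8 (2.35), and at 8968226, 363 and 442 against 132 and 115 (1.70, limma adjusted p = 0.0386, and 0.0514 with edgeR). Another region between them, at 8987494, had 260 and 414 against 170 and 175 and did not pass (0.92, adjusted p = 0.291). Of these 4 regions, the one with the smallest difference had the highest tfap2B values. The one with the largest, at 8993051, had the lowest values of both factors. Since the difference subtracts tfap2B, part of this follows from its definition.

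On chromosome 2, a plus-strand gene at 124898445 to 124909578 (26.6 CPM at HH10) had its 3 such regions outside it, on both sides. At the promoter, 124898623, sox10 had 107 and 122 scaled reads and tfap2B 215 and 135, and it did not pass the test (log2 difference -0.58, limma adjusted p = 0.513). That difference lies within the interquartile range of all promoter regions (-0.68 to -0.02). Intergenic regions 13.2 and 10.9 kb from the TSS on one side had 124 and 182, and 191 and 377, in sox10, against 18.8 and 33.3, and 31.3 and 33.3, in tfap2B. A region 15.0 kb away on the other side had 195 and 412 against 45.6 and 35.4. These 3 regions differed by 2.54, 3.02 and 2.79. The first lies near the threshold (limma adjusted p = 0.0446) and missed it under 4 other scalings (0.0506 to 0.0516), which leaves the gene with 2 regions. The third gene, on chromosome 1 at 65890900 to 65891943, had 0 counts at HH10, which allows up to 0.128 CPM (exact Poisson interval, counting error only). Its 3 regions, 33.6 to 46.0 kb away, differed by 2.61 to 3.08, the smallest of which missed the threshold with TMM factors from placed regions (adjusted p = 0.0503). A region 2.83 kb from its TSS, with 151 and 281 in sox10 and 10.7 and 85.4 in tfap2B, did not pass (2.70, adjusted p = 0.172).

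For some of the genes nearest to such sites the table also holds a promoter region. The regions higher in sox10 outside promoters had 445 nearest genes, and 180 of these had one. The median log2 difference of those promoters was -0.37, and 20.6% of them were above 0. For all placed regions outside promoters the same measure was -0.33 over 1419 genes, with 27.3% above 0. That set includes the 180 genes, and no test was made of the difference. None of those 180 promoters was higher in sox10, against 0.353% of all promoter regions, a share at which under 1 such promoter would be called.

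At HH10, an earlier stage and a single library, the nearest genes of the regions higher in sox10 had a median of 7.14 CPM over 470 genes, against 19.4 CPM over the 10093 genes nearest to any placed region. The class of the region matters to this comparison. For regions outside promoters the medians were 8.48 CPM (445 genes) and 5.18 CPM (4559 genes). For introns they were 11.2 and 4.41 CPM, for intergenic regions 4.45 and 5.80 CPM, and for the 25 promoters 1.67 CPM against 33.6 CPM. No test was made of these levels, which come from 1 library of another reporter and stage.

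All 5 placed regions that overlap the gene ENSGALG00000016680 (chromosome 3, 108690400 to 108715816, minus strand) were higher in tfap2B, and each overlaps an exon. At 108710618 to 108711118, tfap2B had 18945 and 7940 scaled reads and sox10 323 and 339, or -5.21 ± 0.47 on the log2 scale (SE, limma adjusted p = 0.0232). At 108690314 tfap2B had 5451 and 2264 and sox10 130 and 192 (-4.47), and at 108697580, 2131 and 1068 against 167 and 192 (-3.07). In both tfap2B libraries the order of the 5 regions was the same, and replicate 1 was the higher one at each. Sox10 had 98.3 to 339 scaled reads at the 5 regions, on either side of its placed median. The other 2, at 108692806 and 108695387, had 1205 and 525, and 723 and 329, in tfap2B (-2.74 and -2.12). Outside the gene, at 108718482 and 108722451, 2.67 and 6.63 kb from its TSS, the differences were 0.37 and 0.41 with adjusted p of 0.693 and 0.802. The gene had 253 CPM at HH10 (exact Poisson interval 247 to 259). No gene symbol could be assigned, so whether this gene encodes either of the electroporated factors is not known here. Whether the reads at its exons came from chromatin bound by the factor was not tested.

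The other 5 regions higher in tfap2B differed by -2.30 to -1.60 on the log2 scale, and at 4 of them both inputs lay above both sox10 libraries. At the exception, a promoter on chromosome 19 at 6578946 to 6579446, the inputs had 16.7 and 149 scaled reads. Tfap2B had 288 and 308 there and sox10 70.9 and 79.6 (log2 difference -1.97 ± 0.35, SE, limma adjusted p = 0.0304). A promoter on chromosome 16 at 613999 had 451 and 279 in tfap2B, 80.5 and 63.2 in sox10, and 1422 and 524 in the inputs (-2.30 ± 0.39). At that site all 4 pull-down libraries lay below both inputs. An intron on chromosome 21 at 2009301 had 361 and 289 against 111 and 84.2 (-1.73, adjusted p = 0.0446). A promoter on chromosome 3 at 16544133 had 597 and 400 against 159 and 150 (-1.66, adjusted p = 0.0452), and an intergenic region at 48963316 had 379 and 325 against 126 and 105 (-1.60, adjusted p = 0.0479). These last 3 regions lie near the threshold, and edgeR, which called 7 placed regions for tfap2B (0.0505%), did not call them (adjusted p of 0.051 to 0.0602).

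A second gene with very high exonic signal gave no call in either direction, and was chosen for description with its values known. ENSGALG00000012290 (chromosome 1, 51089596 to 51098755, plus strand, 818 CPM at HH10) holds 2 placed regions, both overlapping exons. At 51096274 to 51096774, sox10 had 4911 and 21446 scaled reads and tfap2B 6041 and 1025, or 2.04 ± 0.92 on the log2 scale (SE, limma adjusted p = 0.36). The one at 51090792 had 2413 and 11125 against 3666 and 691 (1.70 ± 0.87, adjusted p = 0.407). In both regions sox10 replicate 2 was highest and tfap2B replicate 1 lay above sox10 replicate 1, so the groups overlapped. For this gene too, it is not known here whether it encodes either of the electroporated factors. Whether these exonic reads came from bound chromatin was not tested either. By contrast an intergenic region 2.46 kb from its TSS, at 51086640 to 51087140, had 388 and 555 in sox10 and 72.5 and 81.2 in tfap2B, and passed the test (2.58 ± 0.36, adjusted p = 0.0232).

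**Figure D5:**
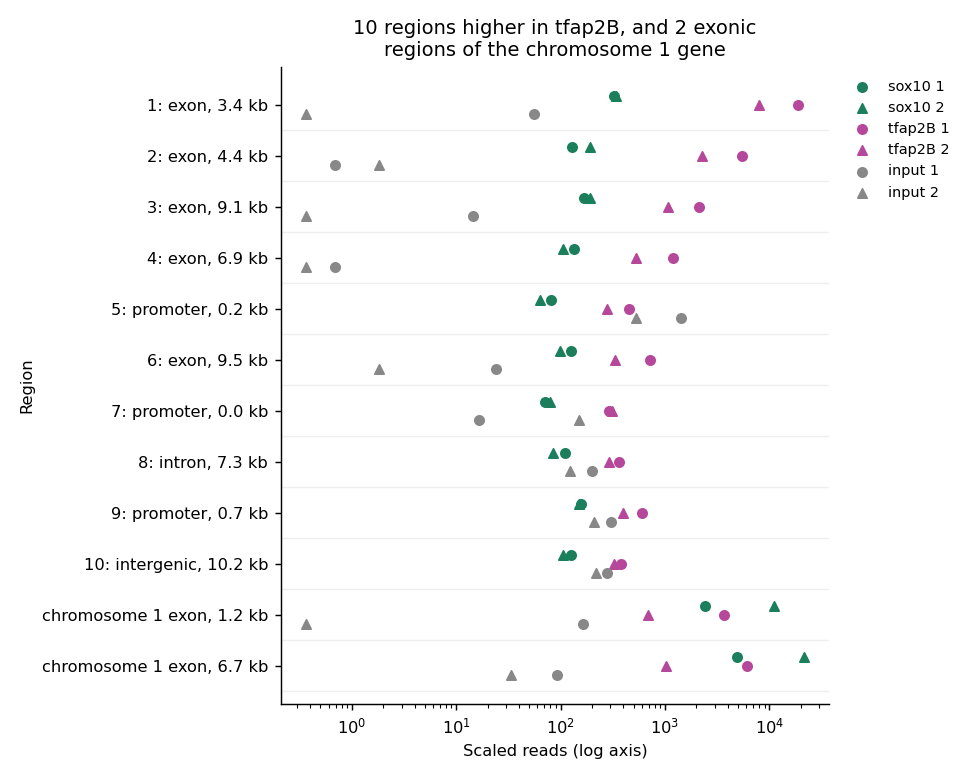
Scaled reads on a log axis in each of the 6 chromatin libraries for the 10 regions higher in tfap2B, ranked by log2 difference, and for the 2 exonic regions of the chromosome 1 gene. The 5 exonic regions among the 10 belong to 1 gene and reach 18945 in tfap2B, while in the chromosome 1 gene the sox10 and tfap2B values overlap.

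Most of the strongest placed regions did not differ beyond the replicate spread. Of the 8 with the highest mean log2 value over the 4 libraries, 1 passed the test, the region of chromosome 3 at 108710618. The first by this mean, a promoter of chromosome 14 at 4195087 to 4195587, gave sox10 2132 and 10550 scaled reads and tfap2B 10175 and 4894 (log2 difference -0.57 ± 0.77, SE, limma adjusted p = 0.748). An intergenic region of chromosome 1 at 153949552 had 3627 and 9605 against 5993 and 4015 (0.27 ± 0.59). A promoter of chromosome 2 at 49766513 had 2096 and 4282 against 2591 and 4171 (-0.13 ± 0.50). In these 3 regions the replicates of a factor differed by as much as the factors.

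The counts depended on which libraries were in the fit. The median absolute log2 difference between replicates was 0.34 for sox10 and 0.56 for tfap2B over placed regions. With either sox10 library left out no region passed in either direction (1681 and 1172 had an unadjusted p under 0.05), while the median log2 difference of the 579 regions was 2.68 without replicate 1 and 2.36 without replicate 2. Without tfap2B replicate 1 the counts were 1364 and 237, and without tfap2B replicate 2 they were 1887 and 2672, so the direction with more calls turned. All 579 and all 10 regions were among those calls. With the test and its adjustment restricted to placed regions, 1121 regions were higher in sox10 (8.09%) and 145 in tfap2B (1.05%), and promoters made up 4.28% and 70.3% of them. The DESeq2 Wald test gave 914 (7.42%) and 89 (0.723%), with promoters at 4.49% and 75.3%.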

How the data were processed

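The chromatin values are a signal: the deposited table is named as raw counts but holds whole reads times 1 constant per library (100% of values whole within 0.01 read), and the sources used here do not say how those constants arose. Per the submitters' processing notes the build was galGal5 and the tools named are DiffBind, DESeq2, Bowtie, featureCounts, Subread 1.4.5 and STAR 2.4.2a, without their roles. The deposited gene table holds raw counts per Ensembl gene, with 28777461 counts in the HH10 library. That library has 2 identical columns, of which 1 was read, and 21 further columns belong to no sample here and were left out. Gene counting is not stated to use strand.

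The main test was limma 3.58.1 (R 4.3.3) with its variance trend, applied to log2(scaled reads + 1), which understates the change of low regions, with the 4 pull-down libraries, no covariate and 2 residual degrees of freedom. A filter on recovered reads (filterByExpr, edgeR 4.0.16) removed 1402 regions, 26 of them placed. Calls had a Benjamini-Hochberg adjusted p under 0.05 over all 24067 tested regions. The fit was also run on simulated reads, in which only regions with at least median signal were changed and both factors had the same spread. That simulation does not cover weaker regions or a spread that differs between the factors. EdgeR and DESeq2 1.42.0 ran on recovered reads as alternatives. Intervals cover counting error only.

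Genes, exons and TSSs (the first base of each gene) came from the gene table. A region was a promoter if within 1 kb of a TSS, otherwise exonic if it overlapped an exon, intronic if inside a gene, or intergenic. Coordinates are as deposited, and whether starts count from 0 or 1 is not stated. Of the placed regions 13880 are 500 bp wide. None of the gene IDs matched the RefSeq table at hand (0 IDs), so gene symbols, gene lists and cell type markers could not be used, and no sequence is shown. Regions were named by rule. For sox10 these are the 12 largest differences with at least median signal, no overlap and a TSS within 100 kb, 1 per gene. Every region for tfap2B was named, up to 20, and so were genes nearest to at least 3 called regions. The rule also covered genes holding at least 3 called regions, and the 1 such gene for sox10 is not described. The members, rules and tests were chosen with earlier results of these data known. The chromosome 1 gene, the strongest regions and the groups by input reads were chosen after values were seen.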

Additional observations from a re-analysis of the deposited data

How the results depend on the processing

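The count of 579 regions higher in sox10 stayed between 499 and 814 under the other pseudocount, both filters, 5 scalings and edgeR (515). It was 914 with the DESeq2 Wald test, 1121 with placed regions only, 960 with 1 variance weight per group (chosen after seeing the data), and 0 with inputs in the fit or at adjusted p under 0.01. The count of 10 higher in tfap2B was 7 to 15 under the filters, scalings and edgeR. It was 23 with a pseudocount of 10, 89 with DESeq2, 145 with placed regions only, 39 with 1 variance weight per group, and 0 with inputs in the fit or at adjusted p under 0.01. With inputs in the fit 864 placed regions had an unadjusted p under 0.05 and the median SE of the 579 regions was 0.93 against 0.43. Without 1 library the counts ran from 0 to 1887 and from 0 to 2672. Without a sox10 library the spread comes from the tfap2B pair alone (median SE 0.74 and 0.76, smallest adjusted p 0.176 and 0.173), and the lone library is assumed to vary alike. A replicate block gave 1122 and 130; the labels do not say that the numbers pair libraries, and same-numbered deviations correlated at 0.11 over placed regions. Other causes of these changes were not tested. No named region reversed under any setting run. The 12 named for sox10 and the 10 for tfap2B all missed the threshold with inputs in the fit and without either sox10 library. Of the 10, 3 also missed it with edgeR, 3 with TMM factors from placed regions and 1 with upper quartile factors. The promoter share difference (sox10 minus tfap2B) of -11.6 percentage points was -11.2 within 5 kb, -11.3 without the top 1% of regions, and -13.6 to -9.58 without 1 library. With 2 libraries per factor, no exact permutation test of a single value could reach p under 0.333.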

Other observations

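Promoters, 51.0% of placed regions tested, made up a varying part of the regions higher in tfap2B in the fits that kept all 4 pull-down libraries. Their share was under 51.0% only in settings with at most 15 such regions. Promoters were 97 of 130 with the replicate block, 102 of 145 with placed regions only and 67 of 89 with DESeq2. With 1 variance weight per group they were 26 of 39, and with a pseudocount of 10 they were 14 of 23. They were fewer, 7 of 15 with total reads, 6 of 13 with no filter, and 5 of 12 with the stricter filter or with TMM factors from all regions. Lower still were 4 of 10 with upper quartile factors, 3 of 10 with DESeq2 size factors, and 2 of 7 with edgeR or with TMM factors from placed regions. As reported, 3 of 10 were promoters, and 5 of the other 7 lie in 1 gene. The largest tfap2B-ward differences that did not pass were promoters with few sox10 reads. One on chromosome 2 at 107653761 had 116 and 43.7 scaled reads in tfap2B and 12.0 and 7.02 in sox10 (log2 difference -2.83, limma adjusted p = 0.0829). One on chromosome Z at 13428399 had 83.2 and 39.6 against 14.4 and 2.34 (-3.03, adjusted p = 0.134). Both had inputs of 47.9 to 88.9 scaled reads.

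Among the 25 promoters higher in sox10, the largest difference was on chromosome 13 at 16737498, where sox10 had 298 and 351 scaled reads, tfap2B had 6.26 and 37.5 and each input 1 read (4.28 ± 0.73, SE, limma adjusted p = 0.0278). Its nearest gene had 1.67 CPM at HH10.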
